A study of Homo sapiens with 3 samples.

Results

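MG-OKS cells given an siRNA directed at SPRR1A were compared with untransfected MG-OKS cells, with 1 RNA sequencing library on each side. Every gene with at least 1 CPM, a count scaled to library size, in either library was described, which kept 14028 of the 46427 genes in the deposited table, or 30.2%. Just inside this limit were LOC112268468 and PRR16 at 1.01 CPM in the higher library, and just outside it were LAT2 and LOC112268177 at 0.998 CPM. MG-OKS is an artificially generated osteosarcoma line described as cancer stem cell-like and labelled as mesenchymal cells; how it was derived is not given in the labels. The SPRR1A siRNA cells received a pre-designed siRNA with a lipid transfection reagent in reduced serum medium, with a change to complete medium after 24 h. The untransfected cells, labelled WT, were identified by their title and the design text, since the transfection protocol is repeated for every library. A library of MG-OKS cells given a scrambled siRNA with the same reagent belongs to the series, and its values are printed beside the others.

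The contrast joins the reagent, any difference in medium, the introduction of any siRNA and the particular siRNA. These cannot be told apart within it. The scrambled values share the untransfected library with the main ratios, so both columns carry whatever is particular to that culture. With 1 library per group there is no replicate check, no SD and no p-value, and the ratios compare libraries, not conditions. Library totals were 40050593 counts for untransfected, 36533542 for scrambled and 34453554 for SPRR1A siRNA cells. Counts below are raw and are given in that order of libraries, whereas ratios are scaled for library size. A gene was called higher or lower in the SPRR1A siRNA library when the ratio reached 2-fold and its exact 95% interval excluded 1. That interval covers counting error only. In bulk RNA, fewer cells of a type and less RNA per cell cannot be told apart.

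Small proline-rich proteins such as SPRR1A are crosslinked into the cornified envelope of stratified epithelia, where basal keratins, hemidesmosomes and desmosomes mark the layers below. Mesenchymal cells are recognised by vimentin, fibronectin and interstitial collagens, and osteoblasts by collagen I together with bone matrix and mineralisation genes. Cells make cholesterol from acetyl-CoA through the mevalonate pathway, whose enzymes are transcribed together under SREBP2 when sterol in the endoplasmic reticulum is low. Sterol excess acts through the liver X receptors.

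SPRR1A itself (NCBI Gene 6698, GRCh38 chromosome 1, 152984081 to 152985814) was at 0 counts in every library. The limit that 0 allows, 3 counts in a library, is 0.0737 CPM for untransfected, 0.0826 for scrambled and 0.088 for SPRR1A siRNA cells. The targeted transcript therefore gives no check of the labels in either direction, and no fold can be given.

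The SPRR1A siRNA library differed from the untransfected one mostly by lower genes. Of the 14028 kept genes 330 were called higher, which is 2.35%, and 1150 were called lower, which is 8.2%, so that 10.6% were called in either direction. The counts of called list members below are to be read beside these shares. The median log2 ratio over all kept genes was -0.001, and list medians below are of log2 ratios on the same scale. At least 4-fold differences were found for 37 higher and 165 lower genes, and at least 8-fold differences for 17 and 32. The same rule applied to the scrambled against the untransfected library called 1.48% of its 14047 kept genes higher and 3.43% lower. The genes called higher with SPRR1A siRNA had a median log2 ratio of 0.40 in the scrambled library, and those called lower a median of -0.39, each relative to the same untransfected culture. Calls were denser among weakly expressed genes. Between 1 and 5 CPM 5.72% were called higher and 18.9% lower, against 1.54% and 3.27% at 100 CPM or more.

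**Figure D1:**
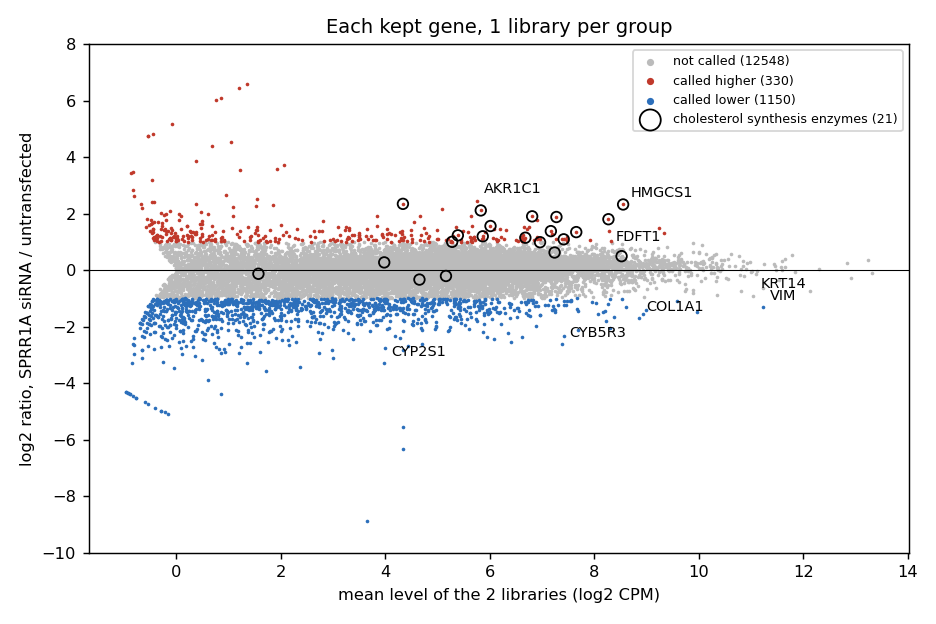
Log2 ratio of the SPRR1A siRNA to the untransfected library for each kept gene, against its mean level in log2 CPM, 1 library per group. Red points are the 330 genes called higher, blue points the 1150 called lower, grey points were not called, and open circles mark the cholesterol synthesis enzymes, most of which lie above 1.

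Among the 15 genes farthest above the untransfected library with at least 5 CPM, 7 enzymes of cholesterol synthesis were found, namely HSD17B7, HMGCS1, IDI1, MSMO1, SQLE, FDFT1 and MVD. The top gene was AKR1C1, an aldo-keto reductase that reduces steroids and lipid aldehydes, with 674, 2451 and 3114 counts, or 5.52-fold higher than in untransfected cells (95% interval 5.08 to 6.01). Its neighbour AKR1C2 had 39, 102 and 163 counts and a log2 ratio of 2.26. Both were also above the untransfected level in the scrambled library, and the close paralogues may share reads. GXYLT1, which adds xylose to Notch receptors, had 504, 1278 and 1903 counts. PIK3R3, a regulatory subunit of phosphoinositide 3-kinase, had 429, 648 and 1365 counts. The matricellular gene CCN1 had 2209, 5000 and 6285 counts and was 3.40-fold higher. In these genes the scrambled library lay between the other two. The remaining genes of this group were the Kelch family members KLHL15 (3.79-fold) and KLHL28 (2.95-fold), the histone gene H3C6 (3.09-fold) and SUCO (2.95-fold), a gene of the endoplasmic reticulum.

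Among the 15 genes farthest below, membrane, cytoskeletal and secretory pathway genes were found. CHRNA4, a nicotinic receptor subunit, had 386, 97 and 28 counts and was lower by 11.5-fold (7.86 to 17.6). CYP2S1, a cytochrome P450 of epithelia, had 1171, 1163 and 98 counts and was 10.0-fold lower (8.13 to 12.4). KRT75, a hair follicle keratin, had 591, 172 and 55 counts and was 8.99-fold lower (6.81 to 12.1). For CYP2S1 the scrambled and untransfected counts were nearly equal, whereas for CHRNA4 and KRT75 the scrambled library was also far below the untransfected one. ADAM19, a membrane metalloprotease, had 1453, 1895 and 171 counts. CORO2B, an actin-binding coronin, had 1132, 875 and 138 counts. CYB5R3, the cytochrome b5 reductase that serves sterol and fatty acid desaturation, had 11665, 9056 and 1588 counts and was 6.15-fold lower (5.83 to 6.48). These 3 were likewise low in the SPRR1A siRNA library alone. B4GALT1, a Golgi galactosyltransferase, had 5890, 4595 and 854 counts. LPCAT3, which loads polyunsaturated chains into phospholipids, had 1825, 1483 and 245 counts. FERMT1, the epithelial kindlin, had 1528, 719 and 199 counts. The other members were CAVIN2 (7.84-fold), NOS3 (7.97-fold), CRLF2 (7.25-fold), SLC12A8 (5.98-fold), EGR1 (5.80-fold) and MAP1A (5.69-fold).

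Some genes with ratios in the same range were set apart from these 30 because reads could have been assigned between overlapping records. On the higher side they comprised 3 readthrough symbols, 1 uncharacterised locus and 4 genes overlapping another kept gene on the same strand, and on the lower side 2 readthrough symbols and 4 overlapping genes. CDRT4 had 0, 172 and 174 counts, while the readthrough record TVP23C-CDRT4 had 249, 22 and 16. CA5B, a mitochondrial carbonic anhydrase, had 1020, 198 and 0 counts, and CA5BP1-CA5B had 347, 579 and 419. In each pair 1 record was low where the other was not, and whether the counting used the strand is not given in the sources used here.

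The label of the cells was checked against marker genes in the untransfected library, using deposited TPM, a level per length. Vimentin stood at 3510 TPM, and the basal and stress keratins KRT14 and KRT6A stood at 3739 and 2803 TPM. Fibronectin had 60.6 TPM and N-cadherin, CDH2, 62.5 TPM. CDH1 and EPCAM, which mark most epithelia, had 2 and 5 counts. The osteoblast regulator SP7 had 0 counts in every library and NANOG likewise, while RUNX2 had 10.3 TPM. The 32 epithelial junction and regulator genes nonetheless had 665 TPM in sum. Of these 13 were kept, and the desmosomal PERP had 268 TPM. The main mesenchymal markers were thus present, together with keratins and part of the epithelial genes, and CDH1 and EPCAM were near 0. Markers of other lineages were partly present. Of 12 blood and myeloid markers 2 passed the expression limit, as did 2 of 7 melanocyte, 2 of 12 adipocyte and 6 of 11 endothelial markers, and PTPRC and CDH5 had 5 and 0 counts in the untransfected library. None of these kept markers was called. Of 14 chondrocyte markers 3 were kept and COL9A3 and SOX9 were called lower. The 10 neural markers had 1558 TPM in sum, of which TUBB3 gave 1547 TPM. Of these markers 6 were kept and 3 were called lower, NCAM1 among them with 579, 507 and 177 counts.

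Keratinocyte genes were lower in the SPRR1A siRNA library, and no kept member was called higher. Of 19 basal keratinocyte genes 17 were kept, 8 were called lower and the median log2 ratio was -0.96, against -0.70 in the scrambled library. The summed level of the list was 8432 TPM in untransfected, 3726 TPM in scrambled and 4563 TPM in SPRR1A siRNA cells, so both siRNA libraries were below. KRT14 had 112208, 40129 and 50186 counts. KRT6A had 118668, 47603 and 64499 counts. KRT5, the usual partner of KRT14, was scarce, with 227, 52 and 97 counts. None of these 3 reached 2-fold against the untransfected library with SPRR1A siRNA, and all 3 were lower still in the scrambled library. Near-identical keratins may share reads, so the split between KRT6A, KRT6B and KRT6C and between KRT14 and KRT16 is uncertain. KRT15, a keratin of basal stem cells, had 2590, 788 and 746 counts and was 2.91-fold lower, again with the siRNA libraries close together.

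In other members of the same list the SPRR1A siRNA library was the lowest of the 3. PERP, a desmosomal and p53-responsive membrane protein, had 20626, 16643 and 4174 counts and was 4.14-fold lower. ITGB4, the integrin chain of hemidesmosomes, had 536, 293 and 120 counts and was 3.74-fold lower. SFN, the epithelial 14-3-3 protein, had 1014, 792 and 321 counts and was 2.64-fold lower. For PERP and SFN the scrambled library lay near the untransfected one, and for ITGB4 it lay between the others. TP63, the master regulator of stratified epithelia, was low throughout, with 65, 86 and 24 counts, and was also called lower.

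Of 24 cornified envelope genes 10 were kept, 5 were called lower and the median log2 ratio was -0.91, against -0.26 in the scrambled library. KLK5, a skin protease, had 960, 524 and 236 counts. SPRR3 had 482, 547 and 129 counts. SBSN, suprabasin, had 588, 192 and 212 counts. The low library was the SPRR1A siRNA one for SPRR3 and both siRNA libraries for SBSN. Of 32 epithelial junction and regulator genes 13 were kept and 3 were called lower, with a median of -0.55. Among them KRT19 had 853, 343 and 340 counts, while the simple keratins KRT8 (log2 ratio -0.24) and KRT18 (-0.26) were not called.

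Mesenchymal genes were also mostly lower, with a wide spread between members. Of 29 listed genes 24 were kept, 6 were called lower and 1 higher, and the median log2 ratio was -0.64, against -0.15 in the scrambled library. VIM had 138198, 128424 and 47018 counts and was 2.46-fold lower (2.43 to 2.49). FN1 had 8986, 5595 and 3205 counts and was 2.35-fold lower. PDGFRB, a receptor of pericytes and fibroblasts, had 932, 588 and 204 counts and was 3.82-fold lower. The vimentin counts were close in the untransfected and scrambled libraries and low in the SPRR1A siRNA library. The proteoglycan genes DCN and LUM were 2.75-fold and 2.51-fold lower. CALD1, caldesmon of the actin cytoskeleton, went the other way, with 1464, 1327 and 3384 counts, or 2.76-fold higher (2.60 to 2.94). CDH2 (0.31), ZEB1 (-0.15) and SNAI1 (0.20) had small log2 ratios. The transcription factor genes TWIST1 (-0.64) and SNAI2 (-0.68) were not called either, but lay near the list median of -0.64. The called genes named here encode structural and surface proteins, a contrast that rests on the 2-fold limit.

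**Figure D2:**
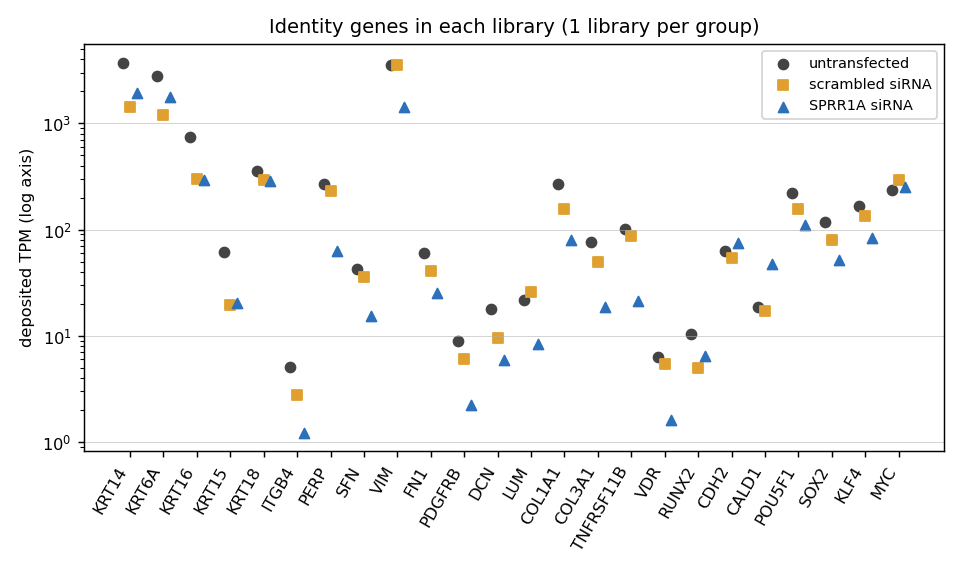
Deposited TPM on a log axis for 24 keratinocyte, mesenchymal, osteoblast and reprogramming genes in each of the 3 libraries, with circles for untransfected, squares for scrambled siRNA and triangles for SPRR1A siRNA. KRT14, KRT6A, KRT16 and KRT15 are low in both siRNA libraries, while PERP, VIM, TNFRSF11B and VDR are low in the SPRR1A siRNA library.

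Of 27 osteoblast genes 13 were kept and 5 were called lower, with a median of -0.52 against -0.18 in the scrambled library. TNFRSF11B, which encodes the osteoclast-restraining decoy receptor osteoprotegerin, had 3906, 3071 and 709 counts and was 4.61-fold lower (4.25 to 5.00). VDR, the vitamin D receptor, had 521, 396 and 121 counts and was 3.60-fold lower. COL1A1 had 29004, 15634 and 7453 counts and was 3.26-fold lower (3.17 to 3.34). For COL1A1 the scrambled library was intermediate. RUNX2, the lineage regulator, was not called, with 865, 374 and 571 counts.

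Collagens followed the same direction. Of 20 kept collagen genes 6 were called lower and none higher, with a median of -0.56 against -0.38 in the scrambled library. COL3A1 had 7729, 4652 and 1636 counts and was 3.95-fold lower. COL6A3, a chain of the microfibrillar collagen VI, had a log2 ratio of -0.44, and COL4A1 (0.13) and COL6A1 (0.18) lay slightly above 0. The 18 kept genes for enzymes and chaperones that modify collagen had a median of -0.18. Of the 18, 1 was called higher and 2 lower, against 2.35% and 8.2% of all kept genes. Among the 18, P4HA1, the catalytic prolyl 4-hydroxylase subunit, was 2.21-fold higher, and the procollagen N-proteinase ADAMTS14 was 3.12-fold lower. Of 25 kept matrix proteases and inhibitors 6 were called lower and 1 higher. TIMP2, which overlaps CEP295NL, had 20432, 11796 and 5460 counts and MMP1 had 259, 318 and 40, while the urokinase receptor PLAUR had 1995, 1966 and 3620.

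Among the pluripotency and reprogramming genes SOX2, KLF4 and POU5F1 were at moderately lower levels in both siRNA libraries and MYC was not. SOX2 had 5381, 3431 and 2081 counts and was 2.16-fold lower (2.06 to 2.28). POU5F1 had 5751, 3765 and 2467 counts and was 1.95-fold lower, which is short of the 2-fold limit. KLF4 had 8983, 6773 and 3850 counts and was likewise 1.95-fold lower. For all 3 the order was untransfected, scrambled, SPRR1A siRNA, from high to low. MYC had 17133, 19659 and 15664 counts and a log2 ratio of 0.13. Of 10 kept pluripotency genes only SOX2 was called, and 8 of the 21 listed genes were at 0 in all libraries. Of 10 kept cancer stem cell markers 2 were called lower, against 8.2% of all kept genes. Of the 10, 8 lay below 0, with a median of -0.66 against -0.31 in the scrambled library. ABCG2, a drug efflux pump, was called lower with 188, 375 and 62 counts, while CD44 had a log2 ratio of -0.33 and ALDH1A3 of 0.08.

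HOX genes, which record positional identity, were mostly near the untransfected level. Of 29 kept HOX genes 3 were called lower, namely HOXA3, HOXD10 and HOXC4, and the median log2 ratio was -0.07. This share, 3 of 29, lies near the 8.2% of all kept genes. HOXA3, HOXA9 and HOXC4 overlap other kept records, so their values are uncertain. HOXA9 had the highest log2 ratio of the list at 0.93.

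**Figure D3:**
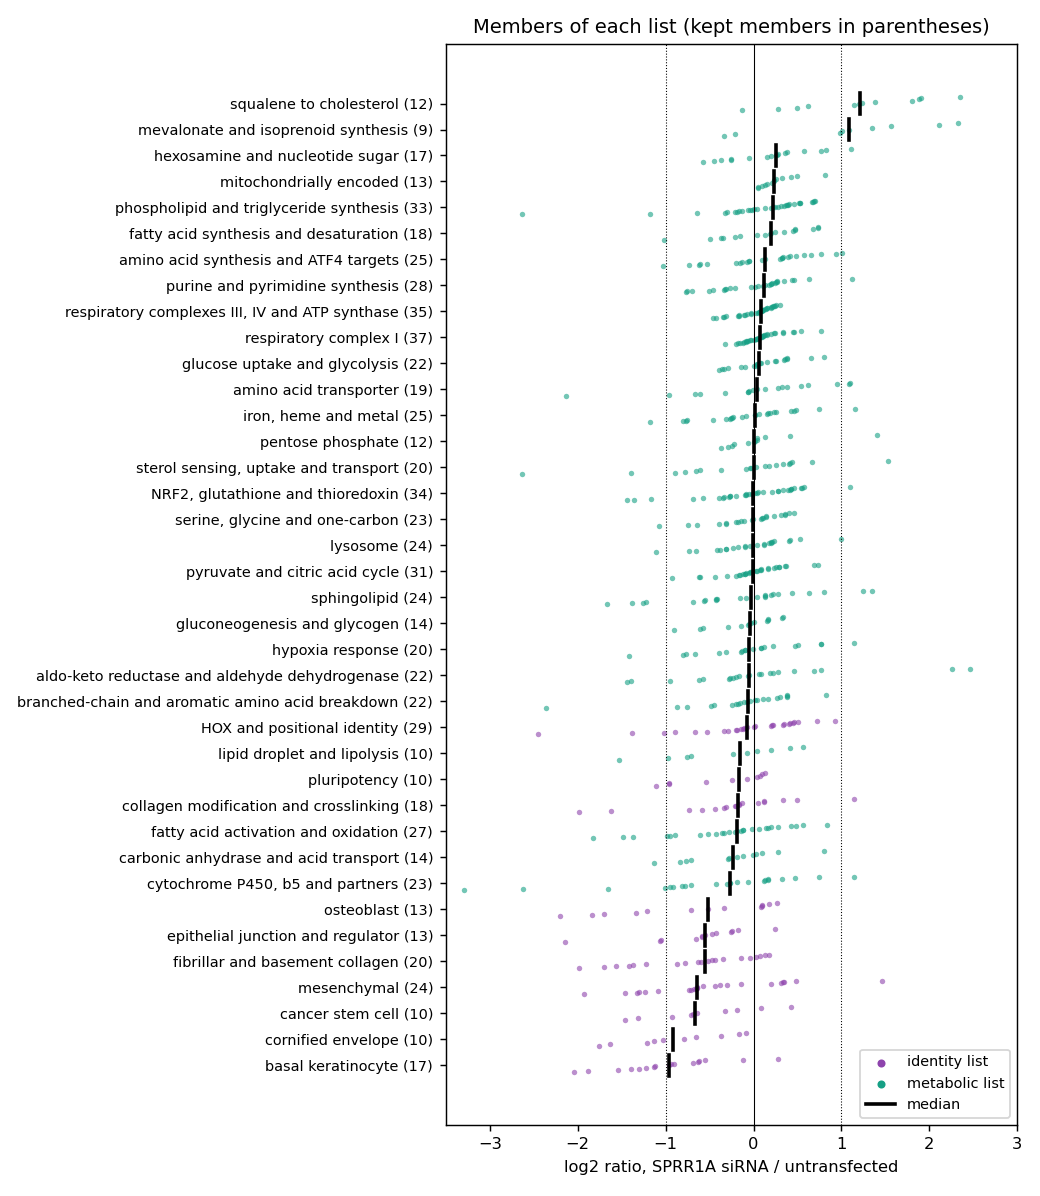
Log2 ratio of the SPRR1A siRNA to the untransfected library for each kept member of the identity lists (purple) and metabolic lists (green) with 9 or more kept members. Black bars are list medians and dotted lines mark 2-fold. The cholesterol synthesis lists lie highest, at medians of 1.21 and 1.09, and the basal keratinocyte list lowest, at -0.96.

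In metabolism, the displaced pathway was cholesterol synthesis. Of 9 mevalonate and isoprenoid genes 6 were called higher and none lower, and their median was 1.09. Of 12 genes from squalene to cholesterol 8 were called higher and none lower, with a median of 1.21. The scrambled library had medians of 0.71 and 0.44 relative to the same untransfected culture, so it lay between the other libraries for both lists. HMGCS1, the synthase that opens the pathway (GRCh38 chromosome 5, 43287470 to 43313412, minus strand), had 5094, 10435 and 21326 counts and was 5.00-fold higher (4.85 to 5.16). MVD, the mevalonate diphosphate decarboxylase, had 1333, 2117 and 3294 counts. Both of these enzymes were lowest in the untransfected, intermediate in the scrambled and highest in the SPRR1A siRNA library. IDI1, the isopentenyl diphosphate isomerase, had 869, 1289 and 3149 counts and was 4.33-fold higher. FDPS, farnesyl diphosphate synthase, had 4640, 5163 and 9864 counts and was 2.54-fold higher. Members that were not called were ACAT2 (log2 ratio 0.99), PMVK (-0.33) and GGPS1 (-0.21), the last of which leads to geranylgeranyl groups and away from sterols.

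FDFT1, squalene synthase, which commits farnesyl groups to sterols, had 5612, 7423 and 16363 counts and was 3.48-fold higher (3.38 to 3.59). SQLE, squalene epoxidase, had 2698, 3698 and 8311 counts and was 3.68-fold higher. MSMO1, the sterol methyl oxidase, had 1931, 2216 and 6045 counts and was 3.74-fold higher. HSD17B7, a sterol ketone reductase, had 270, 464 and 1155 counts and was 5.11-fold higher (4.47 to 5.86). For these 4 enzymes the scrambled library stood nearer to the untransfected than to the SPRR1A siRNA library. DHCR7, the last reductase of one branch, had 3256, 4001 and 7091 counts. SC5D had 1444, 1354 and 2770 counts and NSDHL had 1021, 1221 and 2006. CYP51A1, the lanosterol demethylase, was 2.21-fold higher. LSS (0.62), EBP (0.27) and TM7SF2 (-0.13) were not called.

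**Figure D4:**
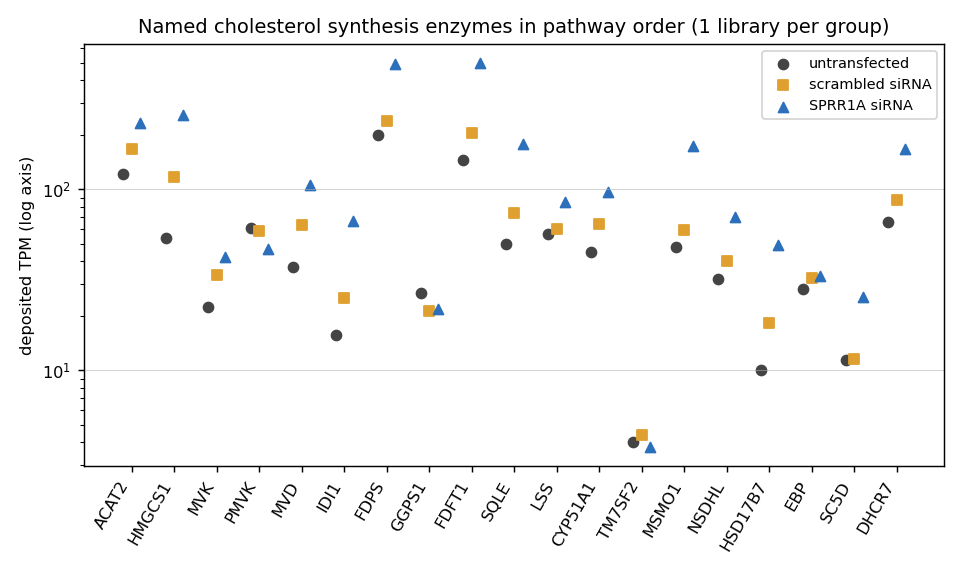
Deposited TPM on a log axis for named cholesterol synthesis enzymes in pathway order in each of the 3 libraries, with circles for untransfected, squares for scrambled siRNA and triangles for SPRR1A siRNA. HMGCS1 lies at 53.5, 117 and 256 TPM and FDFT1 at 145, 205 and 498 TPM in that order, whereas PMVK, GGPS1 and TM7SF2 do not exceed the untransfected level in the SPRR1A siRNA library.

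Genes for sterol sensing, uptake and export had no common direction. Of 20 kept members 1 was called higher and 2 lower, against 2.35% and 8.2% of all kept genes. The list median was 0.00. INSIG1, which retains the SREBP complex in the endoplasmic reticulum, had 8297, 10955 and 8316 counts and a log2 ratio of 0.26. SREBF2, which encodes SREBP2, had 6558, 7913 and 5333 counts and a log2 ratio of -0.04. INSIG1 and SREBF2 thus differed little between the untransfected and SPRR1A siRNA libraries. ABCA1, the cholesterol efflux pump induced by liver X receptors, had 179, 201 and 56 counts and was called lower, as was LPCAT3. NR1H3, which encodes liver X receptor alpha, had a log2 ratio of -0.89 and was not called. STARD4, a sterol carrier, had 179, 178 and 436 counts and was 2.91-fold higher.

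The promoters of these genes were searched for TCACNCCAC, a pattern taken from the sterol regulatory element, on both strands of the RefSeq GRCh38.p14 windows from 250 bases before to 50 after each start. It occurred in 1.15% of 27305 promoters and in 1.04% of those of kept genes. It was found in 0 of 7 mevalonate, 0 of 9 squalene to cholesterol and 1 of 17 sterol sensing promoters with a window. Absence says only that these letters are not in the window. The single match was in SREBF2, on the plus strand. It is shown within the stretch chr22:41832962-41832990, with the match in capitals.

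SREBF2: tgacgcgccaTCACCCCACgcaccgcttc

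Fatty acid synthesis differed little from the untransfected library. Of 18 kept genes 1 was called, ACACB, which was 2.04-fold lower, and the median log2 ratio was 0.19. FASN, fatty acid synthase, had 28600, 31252 and 18881 counts and a log2 ratio of -0.34. SCD, the stearoyl-CoA desaturase, had 17495, 16213 and 17292 counts and a log2 ratio of 0.24. SREBF1, which governs this branch, had 6021, 5133 and 3291 counts and a log2 ratio of -0.61. Of 27 kept fatty acid oxidation genes 3 were called lower and none higher, with a median of -0.19. The share called lower lies near the 8.2% of all kept genes. CPT1B, a carnitine palmitoyltransferase whose value is uncertain because it overlaps a readthrough record, had 383, 427 and 89 counts. PPARD, a nuclear receptor for fatty acids, had 3223, 2649 and 965 counts. CPT1A, the liver-type isoform, had a log2 ratio of -0.28.

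Phospholipid genes held few large differences, and sphingolipid genes differed in both directions. Of 33 kept phospholipid and triglyceride genes LPCAT3 and LPCAT4 were called lower, 6.23-fold and 2.26-fold, and the list median was 0.22. Of 24 kept sphingolipid genes 4 were called lower and 2 higher, against 8.2% and 2.35% of all kept genes, and the log2 ratios ran from -1.66 to 1.35. SPTLC3, a serine palmitoyltransferase subunit, had 2550, 1647 and 672 counts, and CERS2, the ceramide synthase for very long chains, had 6955, 6288 and 2442. UGCG, the glucosylceramide synthase, had 1385, 3839 and 2959 counts and was 2.55-fold higher, with the scrambled library highest. MGLL, monoacylglycerol lipase, had 2978, 2186 and 859 counts and was 2.90-fold lower, and it overlaps an uncharacterised record.

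Glycolysis and the citric acid cycle held no called gene. None of 22 kept glucose uptake and glycolysis genes was called, with a median of 0.06. HK2 had 7517, 5874 and 6691 counts, LDHA had 38429, 32782 and 35853, and PKM had 114056, 104628 and 124714. The largest log2 ratio was 0.80, in the monocarboxylate transporter SLC16A1, and GAPDH had a log2 ratio of -0.29. None of 31 kept pyruvate and citric acid cycle genes was called, with a median of -0.01 and OGDH, of the oxoglutarate dehydrogenase complex, lowest at -0.92. RPIA, ribose 5-phosphate isomerase, was the pentose phosphate gene called higher, with 708, 754 and 1569 counts.

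The respiratory chain was equally flat. None of 37 complex I genes and none of 35 genes of complexes III and IV and ATP synthase was called, with medians of 0.07 and 0.08. The 13 mitochondrially encoded messages were all slightly above the untransfected level, with log2 ratios from 0.05 to 0.81, and their summed level was 66941, 66969 and 73335 TPM. Purine and pyrimidine genes had a median of 0.12, with the first purine enzyme PPAT called higher at 2.17-fold.

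Amino acid metabolism was displaced in a few genes only. PHGDH, which opens serine synthesis, had 9627, 8839 and 11077 counts, and ASNS, asparagine synthetase, had 3555, 4375 and 3718. Neither was called, and ASNS overlaps a readthrough record. Over 25 kept amino acid synthesis and ATF4 target genes the median was 0.13, with GPT2 called higher and PRODH lower. SLC7A8, a neutral amino acid transporter, had 2450, 1389 and 465 counts and was 4.41-fold lower. SLC7A11, the cystine importer that feeds glutathione synthesis, had 3239, 6476 and 5794 counts and was 2.14-fold higher, with the scrambled library highest. GPX4, the peroxidase that uses glutathione to repair membrane lipids, had 5646, 5084 and 1738 counts and was 2.72-fold lower (2.58 to 2.87). Of 34 kept NRF2, glutathione and thioredoxin genes SLC7A11 was the 1 called higher and GPX4, ABCC3 and GPX8 the 3 called lower, shares near those of all kept genes, while NQO1 had a log2 ratio of 0.10 and the list a median of -0.003.

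Of 23 kept cytochrome P450 and cytochrome b5 partner genes 4 were called lower, against 8.2% of all kept genes, and CYP51A1 was called higher. Of the 4 called lower, CYP2S1 and CYB5R3 had 5 CPM or more, whereas CYP24A1 (50, 26 and 12 counts) and CYP4F11 (151, 95 and 62 counts) were thinly counted. AHR, the aryl hydrocarbon receptor, had a log2 ratio of -0.81 and its target CYP1A1 a log2 ratio of -0.30. ALDH3B1 and ALDH16A1, aldehyde dehydrogenases, were 2.72-fold and 2.63-fold lower, opposite to AKR1C1. EPAS1, which encodes hypoxia-inducible factor 2 alpha, had 8616, 5378 and 2706 counts and was 2.66-fold lower. The hypoxia list as a whole had a median of -0.05.

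Genes that can respond to transfection were read alongside. Of 25 kept interferon response genes 4 were called lower, against 8.2% of all kept genes. The list median was -0.47, against 0.14 in the scrambled library. OAS1, an antiviral oligoadenylate synthetase, had 319, 433 and 76 counts, and IFI44 had 743, 916 and 189. No interferon gene was called higher in either siRNA library relative to the untransfected one. BIRC3, an NF-kB target, had 362, 1002 and 738 counts and RELB had 237, 416 and 408, so both siRNA libraries were above the untransfected one. IRAK2, a kinase of the same NF-kB and cytokine list, had 240, 472 and 97 counts and was called lower with SPRR1A siRNA. The 14 kept genes of that list had 7 ratios above and 7 below 0, with a median of 0.13 against 0.46 in the scrambled library. None of 22 unfolded protein response genes was called, although 19 lay above 0 and the median was 0.39. DICER1, which processes small RNA, had 2394, 3412 and 4145 counts and was 2.07-fold higher, the 1 called gene of 15 in RNA silencing.

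Most G1/S genes had lower values in the SPRR1A siRNA library without reaching 2-fold, and the mitotic list differed less. Of 33 G1/S and replication genes 3 were called lower and 30 had a ratio below 0, with a median of -0.37 against -0.06 in the scrambled library. E2F2, MCM10 and GINS3 were 2.20-fold, 2.17-fold and 2.14-fold lower. Of 29 mitotic genes FOXM1 and CDC20 were called lower and 9 lay above 0, with a median of -0.11 against -0.12 in the scrambled library. In both lists the share called lower lies near the 8.2% of all kept genes. FOXM1, a transcription factor of mitotic genes, had 16273, 11802 and 4684 counts, and CDC20, an activator of the anaphase-promoting complex, had 9830, 10120 and 3478. MKI67 (-0.18), CCNB1 (-0.18) and AURKA (0.03) stayed near the untransfected level.

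RNA composition differed as well. The ribosomal RNA precursor records RNA45SN1 and RNA45SN2, chosen after their values were seen, had 12987, 10381 and 30164 counts and 15033, 12141 and 31522 counts, so the SPRR1A siRNA library held more precursor reads than either other library. Of 14 kept replication-dependent histone genes, whose messages lack a poly(A) tail, 3 were called higher and 1 lower, with a median of 0.70 against -0.04 in the scrambled library. The part of library composition in the other ratios was not tested. The most abundant messages differed little in most cases, since of the 10 highest by TPM in untransfected cells none was called, and ACTB differed most, with 227652, 254087 and 112982 counts and a log2 ratio of -0.75. Of 75 cytosolic ribosomal protein genes RPL27A alone was called, with 29671, 28349 and 8430 counts, or 2.95-fold lower, against a list median of 0.13.

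Part of the genes far below the untransfected library shared a sequence feature of the 3' untranslated region (UTR). A small interfering RNA can lower messages beyond its target through matches of the seed of its guide strand in their 3' UTRs. The sequences of the siRNAs are not given in the sources used here, so whether any feature corresponds to them was not tested. All 7-base sequences held in the GENCODE 29 3' UTRs of at least 200 of 12174 kept genes, 13834 in all, were ranked by their holders' ratios. The sequence with the lowest median log2 ratio was CGACCCC, at -0.26 over 295 holders, of which 14.6% were called lower. By share of holders called lower, ACGCCCT came first, at 17.6% over 306 holders, and GTCACCC came second, at 17.4% over 1320 holders, and it was the 5th by median, at -0.24. GTCACCC led the 8361 sequences with at least 1000 holders, a limit chosen after the values were seen, and is described further because of its many holders. Of genes without it 6.74% were called lower. Since the ratios chose these sequences, the values are a description and support nothing further. The sequences with the lowest medians were mostly rich in C and G, and the part of base composition was not tested. In the scrambled library the holders of GTCACCC had a median of -0.03. Of the 15 lowest genes 10 held the sequence, and the first match in 8 of them is shown in a 30-base window of GRCh38, in order of ratio, with the 7-base match in capitals. The other windows are not shown here, so the flanks are not compared.

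CHRNA4: aactgctgctgGTCACCCccacccccgggt
CYP2S1: tgcagccctcaGTCACCCctttttaagcac
KRT75: aatgccaggttGTCACCCacctgtctcata
ADAM19: acatttccaaaGTCACCCccaacgcgtcct
CORO2B: tgacttataaaGTCACCCagcaggtcaaca
FERMT1: attcaccgctgGTCACCCagatcctcattc
CYB5R3: cagcctcgcctGTCACCCccactcccgcct
B4GALT1: gtgttcgcagtGTCACCCcagagtcagaac

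The windows lie in the annotated 3' UTRs at chr20:63345006-63345035 (minus strand) for CHRNA4, chr19:41207167-41207196 (plus) for CYP2S1, chr12:52424152-52424181 (minus) for KRT75, chr5:157477530-157477559 (minus) for ADAM19, chr15:68726726-68726755 (plus) for CORO2B and chr20:6077033-6077062 (minus) for FERMT1. The others lie at chr22:42619329-42619358 (minus) for CYB5R3 and chr9:33113187-33113216 (minus) for B4GALT1. None of the 15 highest genes held the sequence. The share of holders was 10.8% of all kept genes with a UTR, 23.9% of genes called lower, 7.02% of genes called higher and 33.8% of called genes with a log2 ratio of -2 or below. Holders had longer UTRs, and the part of UTR length in these shares was not tested. By UTR length, again a description with the chosen sequence, in the shortest group, up to 623 bases, 31.3% of holders and 7.58% of other genes were called lower. In the middle group the shares were 24.1% and 6.60%, and in the longest group 13.6% and 5.87%.

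Holders in the identity and metabolic lists are to be read beside the 10.8% of all kept genes with a UTR. None of the 9 mevalonate and 12 squalene to cholesterol genes held the sequence, which lists this small cannot set apart from that share. Of the kept members, 1 of 17 basal keratinocyte and 2 of 24 mesenchymal genes held it. GTCACCC was absent from the annotated UTRs of VIM, COL1A1, PERP, TNFRSF11B, GPX4 and RPL27A. It was present in those of FN1, CERS2, MGLL, AXL, SPRR3, NCAM1, ACACB, ALDH3B1, ALDH16A1, MMP1 and IRAK2. Without holders the median of the basal keratinocyte list was -0.95 with 7 called lower, and that of the mesenchymal list -0.64 with 5 called lower. The 5 osteoblast genes called lower all remained. In other lists more of the called genes were holders. Collagen genes called lower went from 6 to 4, with a median of -0.47. The interferon and cytochrome P450 lists each went from 4 to 2. The aldo-keto reductase and aldehyde dehydrogenase list went from 2 to 0. Without holders 920 of 12708 genes were called lower and 314 higher. The ratios chose the sequence and the siRNA sequences are not given. The part of seed matches in any of these values was therefore not tested.

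**Figure D5:**
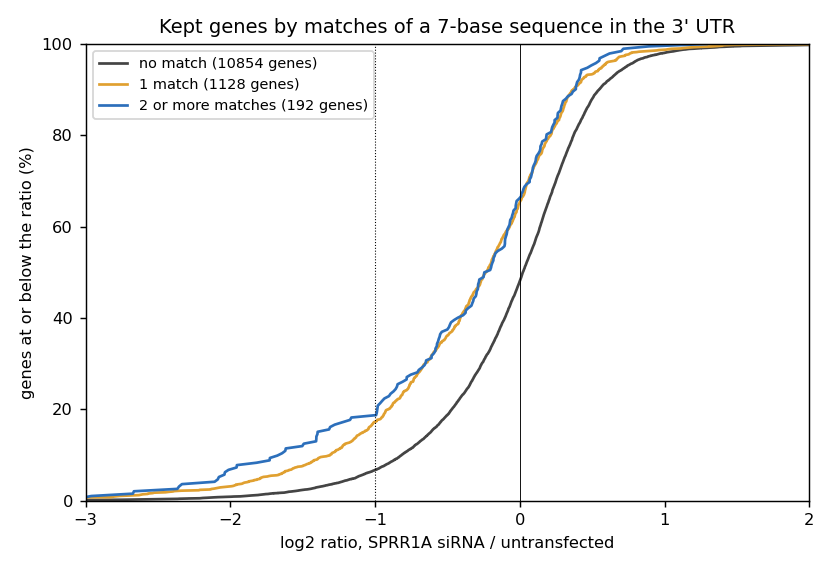
Cumulative share of kept genes, in percent, by the log2 ratio of the SPRR1A siRNA to the untransfected library, for genes with no match, 1 match, or 2 or more matches of the 7-base sequence with the highest share called lower among those with at least 1000 holders. At a log2 ratio of -1 the curves of genes with 1 match and with 2 or more, 17.3% and 18.2% of which were called lower, lie above that of genes without a match at 6.74%, and the values chose the sequence.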

How the data were processed

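RNA was measured in 1 library for each of 3 groups by stranded mRNA sequencing of MG-OKS cells. The authors deposited whole-number read counts per gene, with FPKM and TPM for the same genes; per the file headers these are per-gene values of each library. Deposited TPM gave levels between genes and deposited FPKM was not used further. The submitters' processing notes name HISAT2 2.1.0 and GRCh38; the counter, annotation and use of strand are not given in the sources used here. No column was left unassigned (0).

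TMM factors (edgeR 4.0.16, R 4.3.3) scaled the counts, with 1.017 for the untransfected, 0.994 for the scrambled and 0.989 for the SPRR1A siRNA library. Log2 ratios used a prior count of 2 and genes of at least 1 CPM in either library. Ratios carry exact conditional binomial 95% intervals (scipy 1.17.1), which cover counting error only since reads carry no molecular identifiers. No test was made, as each group has 1 library. The call rule was run on simulated counts that held counting error only, as the interval assumes. That run says nothing about differences between cultures.

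Of 58 gene lists, counts of called members and medians are given. The members, the lists and the rule for named genes were chosen with earlier results of these data known. Named were the 15 highest and 15 lowest called genes with at least 5 CPM, apart from readthrough, uncharacterised or overlapping records; up to 4 called members per list; defining genes; and the 10 most abundant genes. Any other gene, list members included, was chosen after its values were seen. Settings varied were the normalization (DESeq2 1.42.0 size factors, total counts), the expression limit, the prior count, TPM in place of counts and the fold threshold. A few genes are not reported here.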

Additional observations from a re-analysis of the deposited data

How the results depend on the processing

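No paired analysis was possible because each group has 1 library and the labels give no replicate numbers; for the same reason no replicate could be left out. The counts of 330 higher and 1150 lower genes depended on the expression limit, the fold and the scale: they were 958 and 2085 without a limit, 173 and 632 at 5 CPM, 161 and 676 on log2(TPM + 1), 1248 and 2532 at 1.5-fold, and 66 and 387 at 3-fold. The limits and folds admit other genes or sizes by construction; for log2(TPM + 1) the cause was not tested. With DESeq2 size factors they were 330 and 1151, with total counts 291 and 1236, with a prior count of 0.5 337 and 1166, and without readthrough records 312 and 1135. Leaving out holders of GTCACCC, an alternative added after seeing the data, gave 314 and 920. Of 464 alternative list medians 460 stayed within the 95% interval of the list's median. That interval is taken from the rank order of the list's members, which are not replicates. In the smallest lists it spans all members, so staying within it says little there. Of the 464, 26 changed sign, in 14 lists whose medians were at most 0.0704 in size, so no direction is read from those lists. The 4 that moved were the blood and myeloid (-0.0018) and melanocyte (-0.93) medians without a limit, which rest on thinly counted genes, and the cytosolic ribosomal protein median, 0.0917 with total counts and 0.0836 on log2(TPM + 1). Of 929 alternative ratios of named genes 89 moved beyond their counting interval, 68 of them on log2(TPM + 1), 1 changed sign, and no called gene did. Depth limits the genes below 5 CPM, where calls were densest, and no setting replaces the missing replicates.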

Other observations

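Gene families defined by symbol, chosen after their values were seen and read over protein-coding symbols, are given as a description. Some members, such as ITGA6 and ABCA1, also belong to the lists above. Over all kept genes 2.35% were called higher and 8.2% lower. Of 20 semaphorin genes with a SEMA symbol, which encode guidance cues, 14 were kept and 5 were called lower, with a median log2 ratio of -0.86 against -0.09 in the scrambled library. Integrin alpha chains (ITGA, 12 kept) held 4 lower genes and had a median of -0.65 against -0.05. Lipid transporters of the ABCA family (9 kept) held 3 lower genes, with ABCA1 reported above among them, and had a median of -0.69 against 0.08. In these 3 families no gene was called higher. Chaperones lay on the other side with small ratios. The HSPA family (13 kept) had a median of 0.59 against 0.07 in the scrambled library with 1 gene called higher, the CCT chaperonin subunits (9 kept) a median of 0.43 against 0.25 with none called, and 38 kept proteasome subunits a median of 0.24 against 0.22 with none called. Zinc finger genes with a ZNF symbol (425 kept) had a median of 0.16 against -0.07 in the scrambled library, with 11 called higher, near the share of all kept genes, and 7 lower.

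Several abundant single genes outside the lists were also apart. LGALS1, galectin-1, had 42490, 30041 and 16619 counts, in the order of libraries used above. ANPEP, an aminopeptidase of the cell surface, had 30322, 26455 and 9437 counts. The nuclear long non-coding RNA NEAT1 had 60143, 31867 and 18068 counts. These 3 were called lower, with the scrambled library near the untransfected one for ANPEP. CCN3, a matricellular protein, had 11641, 7022 and 1936 counts, opposite to CCN1 of the same family. EPHA2, a receptor tyrosine kinase, had 6995, 8591 and 15425 counts and was called higher, as was CDKN1B, the cell cycle inhibitor p27, with 2631, 3271 and 4643 counts.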
